A study of Mus musculus with 2 samples.

Results

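Binding sites of the corepressor SMRT in mouse liver were mapped by chromatin immunoprecipitation and sequencing, and described here are the stretches of the genome where they lie most densely. The autosomes were divided into fixed windows of 1 Mb, each peak was assigned to a window by its centre, and a window was taken as dense when the ZT10 and ZT22 lists together held 80 or more peaks in it. This gave 42 windows out of the 1971 autosomal windows with at least 1 peak, or 2.13% of them. They held 4110 of the 45448 peaks of both lists (9.04%), namely 1974 of 21370 in the ZT10 list and 2136 of 24078 in the ZT22 list. Since peak numbers chose the windows, those numbers and all spacing that follows from them are given as descriptions.

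The tissue was liver of 12-week-old male C57BL/6 mice with free access to food, killed at Zeitgeber time 10 (ZT10, late in the light phase) or 22 (ZT22, late in the dark phase), with no other treatment. Material of 4 mice per time was immunoprecipitated animal by animal with an antibody against SMRT and pooled, so each time is 1 library and no value has a replicate check. The peak names in the list of the sample labelled ZT10 carry the clock time of the ZT22 sample and the reverse, so every direction between times rests on the sample labels. Per the submitters' processing notes, coordinates are in build mm8; they are given 1-based.

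SMRT does not bind DNA itself. It is carried to regulatory elements by nuclear receptors, among them those of thyroid hormone and retinoic acid, and by other repressors of transcription. There it works in a complex with the histone deacetylase HDAC3, which removes acetyl groups from nearby histones. Each peak marks where DNA was recovered with the SMRT antibody, so a window rich in peaks is a stretch with many separate places of recovery. No gene names, promoter positions or sequences are given for these windows, since the gene and sequence tables at hand are of another build, GRCm38.

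The fullest windows held far more peaks than the usual stretch of the genome, and they did so in both libraries. An autosomal window with any peak held a median of 17 peaks over both lists, whereas the dense windows held from 80 to 147, with a median of 90. The highest number, 147, was reached at chr2:167000001-168000000, where the ZT10 list had 73 peaks and the ZT22 list 74. It was reached again at chr10:79000001-80000000, where they had 71 and 76. The window directly after it, chr10:80000001-81000000, came next with 70 and 68. None of these 3 windows differed between the lists by more than 5 peaks.

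The next 7 windows lay on 6 chromosomes. At chr10:127000001-128000000 the ZT10 list had 57 peaks and the ZT22 list 77, and chr11:120000001-121000000 held 69 and 65. chr5:125000001-126000000 held 60 and 64, and chr8:73000001-74000000 held 62 in each list. chr17:45000001-46000000 had 58 and 61, chr6:72000001-73000000 had 51 and 60, and chr17:28000001-29000000 had 50 and 58. Of these 7, the window at 127 Mb of chromosome 10 had the widest gap between the lists.

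**Figure D1:**
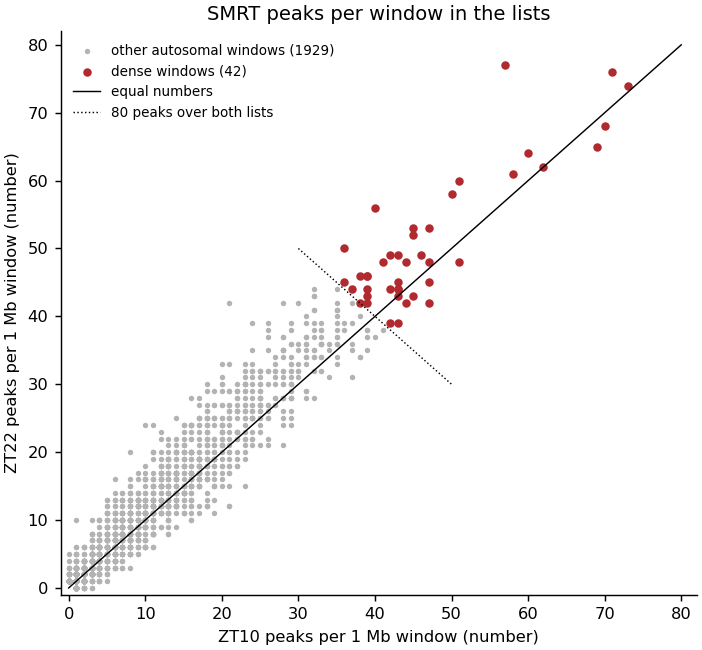
Number of ZT10 peaks (horizontal axis) and ZT22 peaks (vertical axis) in each autosomal 1 Mb window, with the 42 dense windows in red, the 1929 others in grey, a solid line of equal numbers and a dotted line at 80 peaks over both lists. The dense windows lie along the solid line, from 36 to 73 ZT10 peaks and from 39 to 77 ZT22 peaks.

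The threshold fell within a continuous range of densities. Just inside it lay chr3:89000001-90000000, with 38 ZT10 and 42 ZT22 peaks, and 4 windows with 81 peaks over both lists. Just outside it 3 windows held 79 peaks: chr6:124000001-125000000, chr11:117000001-118000000 and chr17:24000001-25000000. These 3 windows had median scores of 1.8 to 2.1 at ZT10 and 1.7 or 1.8 at ZT22, so they did not stand apart from the windows just inside. The place where windows begin mattered as well. With all windows moved by 500 kb, 53 windows reached 80 peaks, and 2024 of the 4110 peaks were in a dense window under both placements.

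Chromosome 11 carried the most dense windows. It held 9 of the 42, which is 8.49% of its 106 windows with a peak, and these took in 24.2% of its peaks. Chromosomes 4, 8 and 17 followed with 4 each, and on chromosome 17, with 77 windows, they held 19.5% of the peaks. Chromosomes 7, 10 and 15 had 3 each, chromosomes 1, 5 and 9 had 2 each, and chromosomes 2, 3, 6, 12, 13 and 19 had 1 each. Chromosomes 14, 16 and 18 had none. The 3 dense windows of chromosome 10 were among the 4 fullest of the genome, so few windows there held 17.7% of that chromosome's peaks.

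On chromosome 11 the dense windows lay between 53 and 121 Mb. The first, from 53000001 to 54000000, held 37 ZT10 and 44 ZT22 peaks, and the second, from 69000001 to 70000000, held 40 and 56. Neighbouring windows from 97000001 to 99000000 held 47 and 42 peaks in the first Mb and 43 and 44 in the second. A further pair from 100000001 to 102000000 held 45 and 52, then 47 and 53. The Mb between these pairs held 6 peaks over both lists, so a sparse stretch separated them. The windows at 106, 115 and 120 Mb of this chromosome completed the group, with 86, 91 and 134 peaks over both lists.

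Some dense windows ended abruptly. The pair on chr10:79000001-81000000, with 285 peaks in 2 Mb, was bordered by 4 peaks in the Mb before it and 5 in the Mb after it. The window at 125 Mb of chromosome 5 was followed by 3 peaks, the one at 18 Mb of chromosome 7 was preceded by 1, and the one at 30 Mb of chromosome 7 was followed by 0. Counting the Mb before and the Mb after each dense window gave 84 neighbouring places, of which 6 were dense themselves, forming 3 pairs. The median of the 84 was 38.5 peaks, above the 17 of all windows with a peak, and 16 of them held 17 or fewer. Windows with 40 to 79 peaks had medians of 29.5 peaks in the Mb before and 31 in the Mb after them.

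Peaks in dense windows scored higher than peaks elsewhere in the same list. The score is a value the authors gave each peak, and as no source states its scale, levels are compared only within a list. Where a score cut is applied to both lists, the numbers past it are counts at the same printed score, and whether that score means the same in both lists was not tested. In the ZT10 list the median score was 1.9 in dense windows and 1.7 in all other autosomal windows. In the ZT22 list the medians were 1.8 and 1.6. A score of 2 or more was reached by 947 of 1974 ZT10 peaks in dense windows, or 48.0% (95% Clopper-Pearson interval 45.8 to 50.2), against 38.2% (37.5 to 38.9) in other windows and 39.0% of the whole list. In the ZT22 list 937 of 2136 reached it, or 43.9% (41.8 to 46.0), against 33.7% (33.0 to 34.3) in other windows and 34.5% of the whole list. The intervals cover counting error only, take neighbouring peaks as independent and say nothing of the spread between mice.

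In both lists dense windows held larger shares of the peaks scoring at least 2, 3 or 5 than of all autosomal peaks. These classes are nested and their intervals overlapped, so a further rise from 3 to 5 is not shown. Dense windows held 9.30% of all autosomal ZT10 peaks and 7.05% of those scoring 1.0 to 1.4. They held 11.4% (10.7 to 12.1) of those at 2 or more, 12.8% (11.65 to 13.97) at 3 or more and 13.7% (11.2 to 16.5) at 5 or more. At 7 or more they held 25 of 177, or 14.1% (9.35 to 20.1). In the ZT22 list they held 8.92% of all autosomal peaks and 6.93% of those scoring 1.0 to 1.4. They held 11.3% (10.6 to 12.0) at 2 or more, 12.5% (11.29 to 13.75) at 3 or more and 12.9% (10.3 to 15.9) at 5 or more. At 7 or more they held 12 of 143, or 8.39% (4.41 to 14.2), an interval that includes both their share of the whole list and the 12.9%. The top of each list, at 14.8 and 14.4, lay outside dense windows, where the highest scores were 11.9 and 11.8.

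Scores rose with peak number along the whole range of windows. Autosomal windows were grouped by their peaks over both lists, from 1 to 9 up to 80 or more. The share of ZT10 peaks scoring 2 or more was 26.6% in the sparsest group of 661 windows. It then ran through 32.9%, 37.1%, 42.3% and 43.7% to the 48.0% of the dense windows. The ZT22 shares ran from 22.8% through 28.7%, 33.2%, 37.3% and 37.9% to 43.9%. The intervals of the dense group and of the group with 60 to 79 peaks, 42.0 to 45.4 at ZT10 and 36.4 to 39.5 at ZT22, did not overlap.

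**Figure D2:**
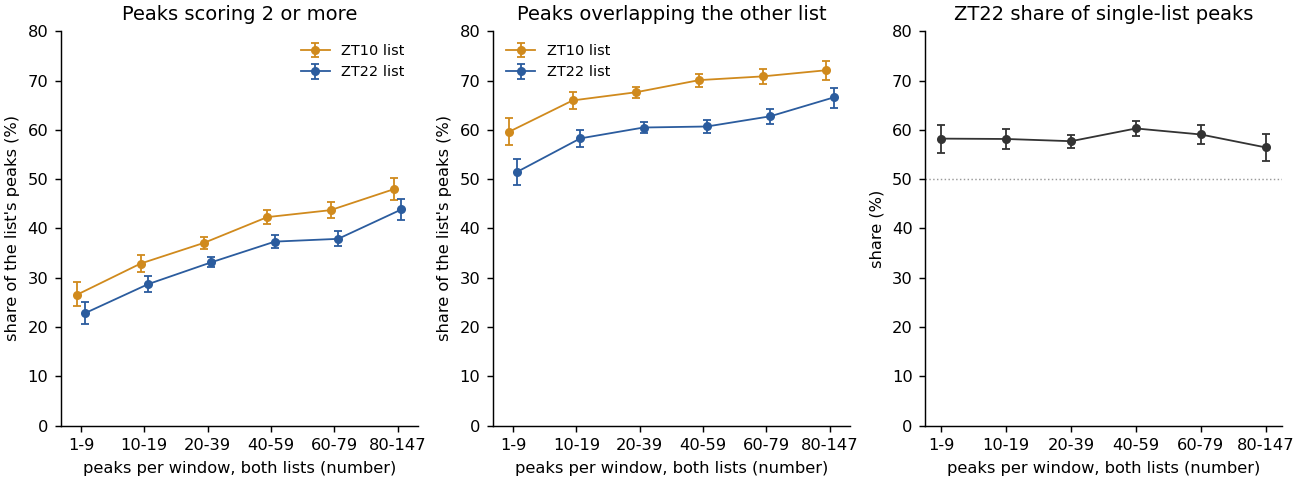
Autosomal windows grouped by peaks over both lists (horizontal axis), showing on the vertical axes in % the peaks scoring 2 or more, the peaks overlapping the other list, and the share of ZT22 among peaks found in 1 list only; ZT10 is orange, ZT22 is blue, and bars are 95% Clopper-Pearson intervals. Shares in the first 2 panels are higher in each denser group, up to 48.0% and 43.9% for scores and 72.1% and 66.6% for overlap, and the third stays between 56.4% and 60.3%.

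A rule that ranks windows by peak number in 1 list and reads the scores of the other gave nearly the same values. Ties at the last place were cut by the order of the windows. The 42 windows with most ZT10 peaks included 36 of the dense windows, while 43 windows, 37 of them dense, held 39 or more. In the 42 ranked windows 43.8% (41.7 to 46.0) of ZT22 peaks scored 2 or more, against 33.7% elsewhere. The 42 windows with most ZT22 peaks included 36 of the dense windows, while 49 windows, 40 of them dense, held 42 or more. In the 42 ranked windows 48.98% (46.72 to 51.25) of ZT10 peaks scored 2 or more, against 38.15% elsewhere. Of the peaks of each list, 68.3% at ZT10 and 60.6% at ZT22 overlapped a peak of the other list, so this is not a replicate.

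Most dense windows shared the higher scores, and the strongest of them were few. The median ZT10 score of the window exceeded that of other windows, 1.7, in 33 of 42 windows and lay below it in 5. At ZT22 it exceeded 1.6 in 35 and lay below it in 2. The middle window of those with 40 to 79 peaks also passed these cuts, with 1.8 at ZT10 and 1.65 at ZT22. The corresponding values of dense windows were 1.9 and 1.8. Among dense windows the highest ZT10 median was 2.5, at chr5:125000001-126000000, where the ZT22 median was 2.45 and 38 of 60 ZT10 and 41 of 64 ZT22 peaks scored 2 or more. The highest ZT22 median was 2.5, at chr13:23000001-24000000, where the ZT10 median was 2.35. These 2 windows also held the most ZT22 peaks with a score of 5 or more, 9 and 8.

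At the other end stood dense windows made of many weak peaks. The lowest ZT10 median, 1.6, was found in 5 windows. Among them was chr7:127000001-128000000, where 10 of 41 ZT10 peaks (24.4%) scored 2 or more and no peak of either list passed 3.6. The lowest ZT22 median, 1.45, was that of chr8:87000001-88000000, whose ZT10 median was 1.95. Dense windows thus differed from each other in score, and their range of medians, 1.6 to 2.5 at ZT10 and 1.45 to 2.5 at ZT22, lay within that of windows with 20 to 79 peaks, which was 1.15 to 3.6 and 1.2 to 3.5.

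Most dense windows held at least 1 strong peak. At least 1 ZT10 peak with a score of 5 or more was found in 38 of 42 windows and at least 1 such ZT22 peak in 34. Among windows with 20 to 79 peaks these were 321 and 287 of 831, or 38.6% and 34.5%; they hold fewer peaks and so had fewer chances of holding one. Within dense windows 4.71% of ZT10 peaks reached a score of 5, as did 3.56% of ZT22 peaks, against 3.19% and 2.46% of the whole lists.

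The strongest peaks of the dense windows were for the most part at the same positions in both lists. At chr11:115846612-115846811 lay the strongest ZT10 peak of these windows, with a score of 11.9. Its ZT22 partner lay 1 bp away and scored 9.7. On chromosome 19 the ZT10 peak at 4989081 to 4989280 scored 11.0 and its ZT22 partner, 2 bp away, scored 11.5. On chromosome 11 the ZT10 peak at 106828882 to 106829081 scored 9.4 and its ZT22 partner, 3 bp away, scored 9.2. Also on chromosome 11, the ZT22 peak at 69395572 to 69395771 scored 8.6 and its ZT10 partner, 3 bp away, scored 8.4. The remaining ones of the 5 strongest per list lay at a single site of chromosome 12, where the lists placed peaks side by side.

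At that chromosome 12 site, the ZT22 list had 1 peak at 104739834 to 104740033 with a score of 11.8. The ZT10 list had 2 peaks around it, at 104739569 to 104739768 (score 9.6) and at 104740166 to 104740365 (score 10.7), with centres 265 and 332 bp from it. None of the 3 shared a base with a peak of the other list. A like arrangement was found on chromosome 5, where a ZT10 peak at 125679558 to 125679757 (score 8.4) lay 343 bp from a ZT22 peak at 125679215 to 125679414 (score 5.9). A further ZT22 peak there, at 125678578 to 125678777, scored 6.3. These 6 peaks were all the peaks of dense windows with a score of 5 or more and no overlap. Each had a peak of the other list within 1 kb. In other windows the same was true of 3 of 14 such ZT10 peaks and 2 of 6 such ZT22 peaks.

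**Figure D3:**
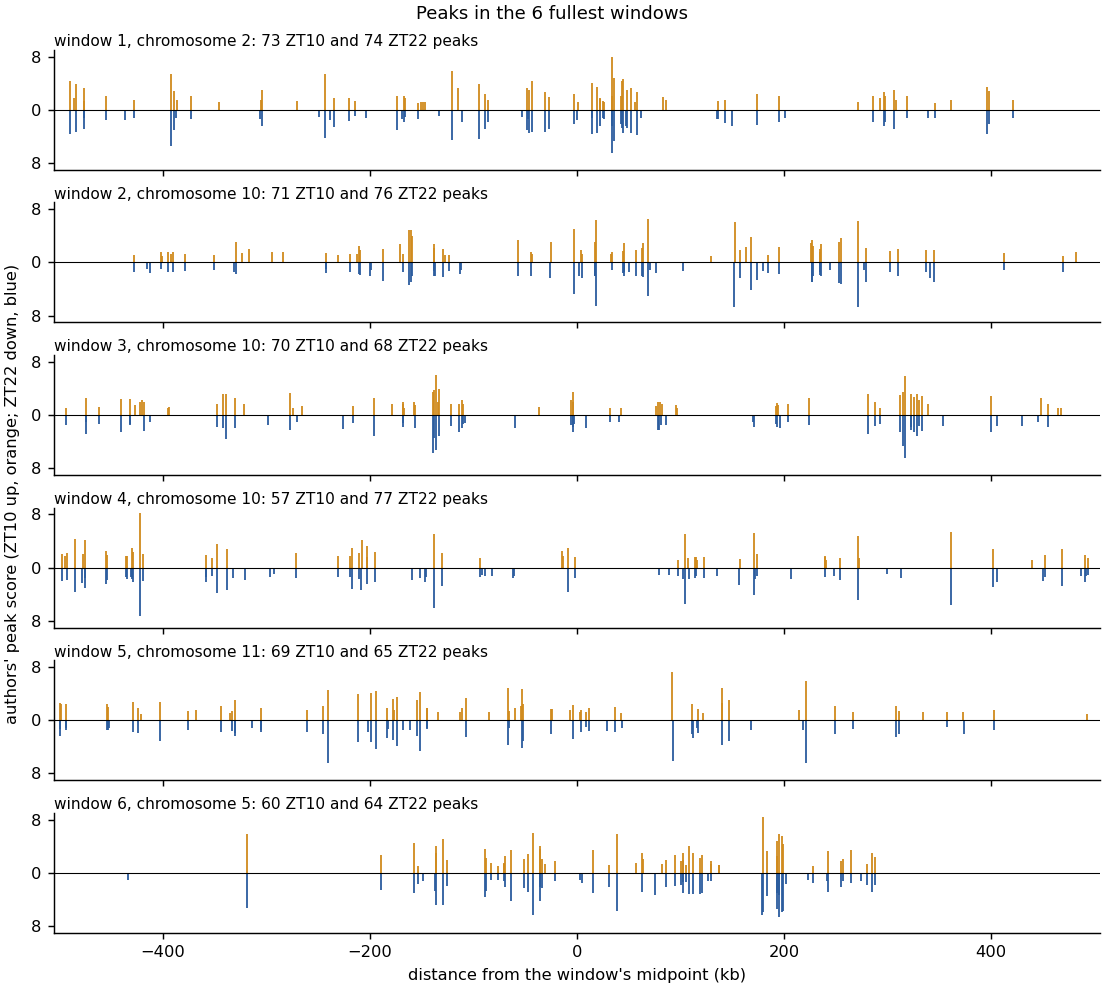
Peaks of the 6 fullest windows by distance from the window's midpoint in kb (horizontal axis), with the authors' score drawn upward in orange for ZT10 and downward in blue for ZT22. Most orange lines have a blue line at the same place, and the peaks of the chromosome 5 window leave its outer parts nearly empty.

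A larger share of peaks in dense windows than in all other windows together had a partner in the other list. In the ZT10 list 1423 of 1974, or 72.1% (70.1 to 74.1), shared at least 1 bp with a ZT22 peak, against 68.0% (67.4 to 68.7) in other windows and 68.3% of the whole list. In the ZT22 list 1422 of 2136, or 66.6% (64.5 to 68.6), had a ZT10 partner, against 59.98% (59.3 to 60.6) in other windows and 60.6% of the whole list. Windows with 60 to 79 peaks had 70.8% (69.3 to 72.4) at ZT10, an interval that overlapped that of dense windows. At ZT22 they had 62.75% (61.2 to 64.3), and there the intervals did not overlap. Partners lay a median of 19 bp apart in dense and in other windows alike. Overlap was linked to the rule, since a site in both lists added 2 to the count of its window. When overlapping peaks were merged and the 42 windows with most distinct sites were taken instead, 39 were dense windows, and the shares were 70.7% at ZT10 and 65.9% at ZT22, against 68.2% and 60.1% in the other windows. The ZT10 difference was thereby reduced to 2.57 points (0.41 to 4.68). A further comparison kept only the stronger 50% of each list, so partners also had to be among these. There the ZT10 difference was 2.21 points, with an interval that included 0 (-0.44 to 4.74). The ZT22 difference was 5.37 points (2.65 to 7.995).

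Peaks of like score overlapped at similar rates in dense windows and elsewhere, higher in some score classes and lower in others. Among ZT10 peaks scoring 1.0 to 1.4, 42.3% (38.1 to 46.6) overlapped in dense windows and 41.3% (40.1 to 42.4) in others. From 1.5 to 1.9 these were 69.0% and 71.3%, and from 2.0 to 2.9 they were 86.3% (83.1 to 89.2) and 89.5% (88.6 to 90.4). Among ZT22 peaks scoring 1.0 to 1.4, 42.1% (38.4 to 46.0) overlapped in dense windows and 39.5% (38.5 to 40.5) in others. From 1.5 to 1.9 they were 66.2% (62.0 to 70.3) and 61.9% (60.6 to 63.2), and from 2.0 to 2.9 they were 78.1% and 78.4%. The intervals of dense and other windows overlapped in all 5 score classes of both lists, which does not show that the shares are equal. Intervals of the differences within classes were not computed. Giving the other windows the score distribution of the dense ones raised their overlap to 73.7% at ZT10, above the 72.1% of dense windows, and to 65.4% at ZT22, below the 66.6%. The differences of 4.06 and 6.59 percentage points thus became -1.64 and 1.20. No interval was computed for the latter values. The 73.7% and 65.4% lay inside the intervals of dense windows, 70.1 to 74.1 at ZT10 and 64.5 to 68.6 at ZT22.

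**Figure D4:**
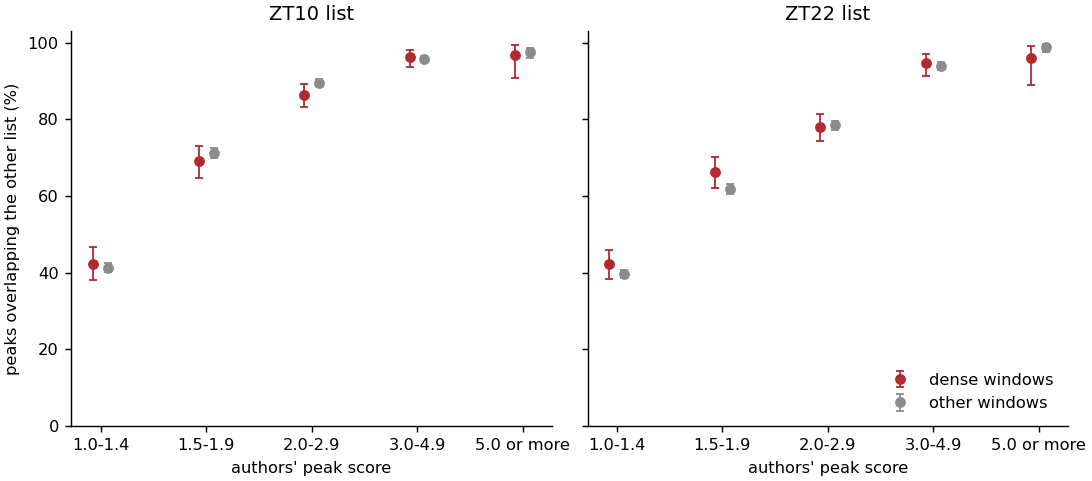
Share of peaks overlapping the other list in % (vertical axis) by the authors' peak score (horizontal axis) in dense windows (red) and other autosomal windows (grey), for the ZT10 list on the left and the ZT22 list on the right; bars are 95% Clopper-Pearson intervals. Red and grey points lie close together in each class, rising from 42.3% and 41.3% in the weakest ZT10 class to 96.8% and 97.6% in the strongest.

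Single windows varied widely in overlap, and most had wide intervals. The share of ZT10 peaks with a partner ran from 55.3% to 88.2% over the 42 windows, with a median of 71.2%, and that of ZT22 peaks from 54.2% to 79.7%, with a median of 66.0%. It was above the share of the other windows in 33 of 42 windows in either list. Windows with 40 to 79 peaks had medians of 71.4% at ZT10 and 61.8% at ZT22, which also lay above those pooled shares. The ZT10 median of dense windows was thus no higher than theirs. Among dense windows the highest ZT10 value was at chr6:72000001-73000000, where 45 of 51 peaks (76.1 to 95.6) had a partner. There the median ZT10 score was 1.6, among the lowest, and no peak scored 5 or more, so this window joined weak peaks with high overlap. The lowest ZT10 value was at chr15:76000001-77000000, with 26 of 47 (40.1 to 69.8).

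In the ZT22 list the highest overlap was at chr5:125000001-126000000, with 51 of 64 peaks (67.8 to 88.7), and the lowest at chr7:127000001-128000000, with 26 of 48 (39.2 to 68.6). In each list 5 windows had an interval wholly above the overlap of other windows, and none had one wholly below it. How many of the other windows had such intervals was not counted, so these numbers are descriptions only. The windows at 167 Mb of chromosome 2, 125 Mb of chromosome 5 and 72 Mb of chromosome 6 were among the 5 in both lists. The window on chr12:104000001-105000000, which held the side-by-side peaks, had overlaps of 57.8% and 60.5%.

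**Figure D5:**
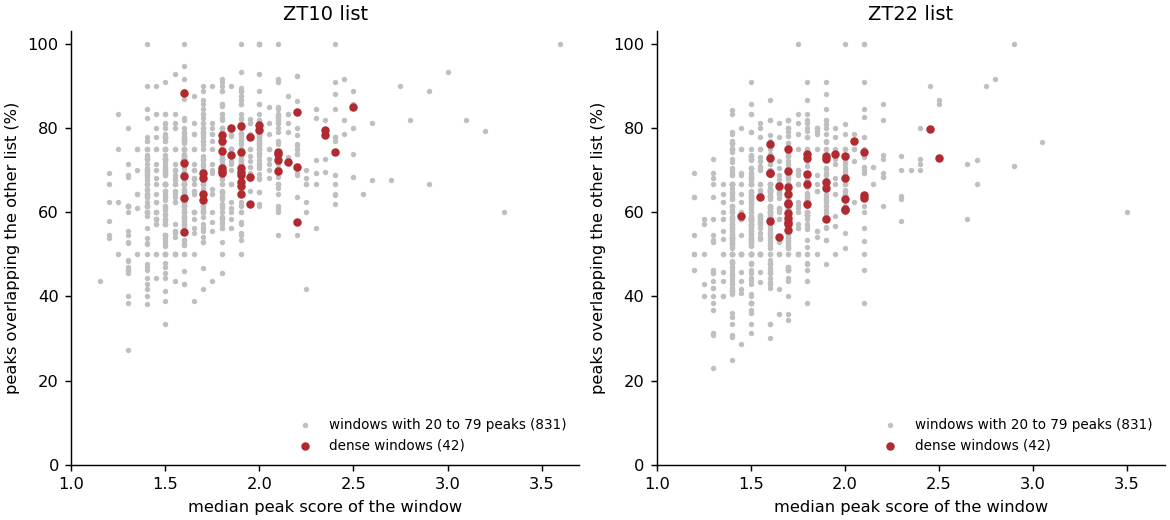
Median peak score of each window (horizontal axis) and share of its peaks overlapping the other list in % (vertical axis), for the ZT10 list on the left and the ZT22 list on the right, with the 42 dense windows in red and the 831 windows with 20 to 79 peaks in grey. The red points lie between 55.3% and 88.2% at ZT10 and between 54.2% and 79.7% at ZT22, inside the spread of the grey ones.

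Peaks lay close to one another in dense windows, which the choice by number in large part fixes. The nearest peak of the same list lay a median of 3.65 kb away at ZT10 and 3.54 kb away at ZT22. The distances were 7.96 and 6.96 kb in other windows and 5.09 and 4.62 kb in windows with 60 to 79 peaks. Of the peaks in dense windows, 36 of 1974 at ZT10 (1.82%) and 35 of 2136 at ZT22 (1.64%) had no neighbour within 50 kb. In other windows the shares were 15.5% and 13.8%. Runs, in which starts follow each other at up to 5 kb, took in 57.6% of the ZT10 peaks of dense windows and 59.0% of their ZT22 peaks, whereas elsewhere the shares were 40.9% and 43.1%. Runs of 5 or more peaks took in 5.72% and 8.61%, against 1.71% and 2.37%.

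Dense windows were filled along most of their length rather than packed into 1 cluster. Dividing each window into bins of 100 kb, a median of 9 of 10 bins held a peak in either list, against 7 at ZT10 and 8 at ZT22 in windows with 40 to 79 peaks. All 10 bins were filled in 11 of the 42 dense windows at ZT10 and 15 at ZT22. Among the 320 windows with 40 to 79 peaks they were filled in 19 and 27. The fullest bin held a median of 24.1% of a window's ZT10 peaks and 22.7% of its ZT22 peaks, against 28.6% and 28.0% in windows with 40 to 79 peaks. The longest stretch without a peak had a median of 156 kb at ZT10 and 136 kb at ZT22. Dense windows held medians of 43.5 ZT10 and 48 ZT22 peaks, against 25 and 28 in windows with 40 to 79 peaks. More peaks fill more bins, so these differences follow in part from the rule. Clustering at equal peak number was not tested.

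The 5 windows with most peaks had a peak in every bin, in both lists. The window at chr5:125000001-126000000 had the fewest filled bins: its ZT10 peaks occupied 6 bins and its ZT22 peaks 7, a number that 3 other dense windows shared at ZT22. Its fullest bin held 31.7% of the ZT10 peaks. The longest empty stretches of any dense window, 361 kb at ZT10 and 368 kb at ZT22, lay at chr8:129000001-130000000, where 43 and 49 peaks fell into 7 bins. The fullest ZT10 bin of any dense window held 36.4% of the peaks, at chr13:23000001-24000000. Its runs at 23431243 to 23446322, with 10 ZT10 peaks scoring 1.7 to 7.8, and at 23524583 to 23537961, with 8 ZT10 peaks scoring 2.4 to 5.2, were the ones with most peaks in any dense window. All 8 peaks of the second run had a ZT22 partner.

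Runs in the fullest windows were short; where runs were equally full, the shortest is given. At 167 Mb of chromosome 2 the fullest ZT10 run, at 167542902 to 167558228, had 7 peaks with a median score of 3.0, of which 6 had a ZT22 partner. At 80 Mb of chromosome 10 the fullest ZT10 run, at 80361048 to 80366991, had 5 peaks with a median score of 3.7, and the fullest ZT22 run, at 80822707 to 80833057, had 6 peaks where the ZT10 list had 5. At 127 Mb of chromosome 10 the fullest runs of the lists coincided, with 4 ZT10 peaks at 127064318 to 127070899 and 5 ZT22 peaks at 127064311 to 127070930. At 120 Mb of chromosome 11, 4 ZT10 peaks at 120440468 to 120447743 stood beside 2 ZT22 peaks, and 4 ZT22 peaks at 120610953 to 120616676 stood beside 2 ZT10 peaks. No run at 79 Mb of chromosome 10 had more than 3 ZT10 or 4 ZT22 peaks, although that window tied for the most peaks of all. Over all dense windows, runs of 2 or more peaks numbered 434 at ZT10 and 477 at ZT22, with a median of 2 peaks.

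Measured against the mean spacing of their own window, the peaks of some dense windows lay more closely grouped than those of others. The median distance to the nearest peak was divided by 1 Mb over the window's number of peaks. This ratio was smallest at chr12:104000001-105000000, at 0.067 for ZT10 and 0.062 for ZT22, where the median distances were 1.49 and 1.44 kb. It was largest for ZT10 at chr19:4000001-5000000, at 0.35 with a median distance of 7.74 kb. For ZT22 that window and chr8:87000001-88000000 both reached 0.33. The medians over dense windows, 0.17 and 0.19, were above the 0.14 and 0.15 of windows with 40 to 79 peaks.

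The surplus of ZT22 peaks was somewhat smaller in dense windows than in other windows. Dense windows held 2136 ZT22 and 1974 ZT10 peaks, a ratio of 1.08, against 1.13 elsewhere. ZT22 made up 52.0% (50.4 to 53.5) of the peaks in dense windows and 53.1% (52.7 to 53.6) in other windows, so the intervals overlapped. At scores of 2 or more the ratio was 0.989 in dense and 0.999 in other windows, and at scores below 2 it was 1.17 and 1.22. These ratios set counts at the same printed score side by side and depend on the lists sharing a score scale, which no source states. Of the 1265 dense-window peaks found in 1 list only, 714 were of ZT22, or 56.4% (53.7 to 59.2), against 58.7% (57.9 to 59.5) elsewhere. Within dense windows such peaks made up 27.9% at ZT10 and 33.4% at ZT22, compared with 31.7% and 39.4% of the whole lists.

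The balance between the lists was similar from window to window at this depth of counting. ZT22 had more peaks in 31 of the 42 dense windows, ZT10 in 9, and 2 had equal numbers; among windows with 20 to 79 peaks ZT22 had more in 66.7%. The ZT22 share ran from 47.2% to 58.3%. The lowest was at chr11:97000001-98000000, with 47 ZT10 and 42 ZT22 peaks (36.5 to 58.1). The highest was at chr11:69000001-70000000, with 40 and 56 (47.8 to 68.3), and the next at chr11:106000001-107000000, with 36 and 50 (47.0 to 68.7). The interval of every one of the 42 windows included the 53.1% of other windows. Time of day, a difference between the pooled animals and a difference in sequencing depth between the libraries cannot be told apart here.

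Peaks in 1 list only had a median score of 1.4 in dense windows in both lists, against 1.3 at ZT10 and 1.4 at ZT22 elsewhere. Of the 551 single ZT10 peaks in dense windows, 27.4% (23.7 to 31.3) had a ZT22 peak within 1 kb and 72.1% within 10 kb; elsewhere these were 20.6% and 55.5%. Of the 714 single ZT22 peaks, 22.1% (19.1 to 25.4) and 68.3% had a ZT10 peak as near, against 15.3% and 51.1% elsewhere. A denser window brings any 2 peaks closer, so these shares follow in part from the rule.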

How the data were processed

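The peak lists were analysed as deposited by the authors, 1 per pooled library; per the submitters' processing notes HOMER and mm8 were used. No source used here gives the aligner, calling settings, an input control or read numbers; the depth is thus unknown. Per peak the authors deposited a score of unstated scale, with 1 decimal and a lowest value of 1.0; every peak is 200 bp wide. Windows of 1 Mb began at base 1 of each chromosome, and chromosome X was left out. Partners share at least 1 bp. Intervals of shares are exact (Clopper-Pearson, 95%) and hold counting error alone, and those of differences between shares combine both intervals as the root of the summed squares of their arms; with 1 library per time no test was made. The windows and all lists were chosen with earlier results of these data known. Windows and peaks were named by number of peaks, by the extremes of score, overlap, spacing and balance, and by peak score; the windows at abrupt borders and with the longest gaps were chosen after their values were seen. Counting was tested on simulated peaks. Alternatives were other window placements and thresholds, distinct sites, overlap definitions, score classes and run distances. Python 3.11.15, NumPy 2.4.6, pandas 2.3.3, SciPy 1.17.1 and matplotlib 3.10.9 were used.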

Additional observations from a re-analysis of the deposited data

How the results depend on the processing

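Placement and threshold set which windows were dense. The higher scores, higher raw overlap and closer spacing kept their direction under each placement, threshold and ranking tried. However, the ZT10 overlap difference fell from 4.06 to 2.57 points when windows were ranked by distinct sites. It was 2.21 points (-0.44 to 4.74) with only the stronger 50% of each list kept, partners included. With 60 or more peaks there were 148 windows with 11348 peaks, and with 100 or more there were 11 with 1386. Under the lower threshold the ZT22 median score was higher than elsewhere by 0.1, its share at 2 or more by 7.26 points, and the ZT10 share in runs by 13.6 points. Under the higher one overlap was higher by 6.19 points at ZT10 and 8.77 at ZT22, the ZT22 share at 2 or more by 12.5 points and the ZT10 share in runs by 20.1 points. With windows moved by 500 kb the ZT22 differences were 0.1 in median score and 6.84 points at 2 or more. At the members' scores the overlap difference was -1.64 points at ZT10 and 1.20 at ZT22, values for which no interval was computed. What sets the difference was not tested. At 3 or more the differences in score share were 6.38 and 5.26 points. With runs joined at 2 kb the differences were 10.8 points at ZT10 and 10.0 at ZT22, and with 10 kb they were 20.9 and 18.6. Between distinct sites the median distance was 0.54 times that elsewhere. The ratio of ZT22 to ZT10 peaks in dense windows over that elsewhere, 0.954, was 0.990 at scores of 2 or more and 0.913 for single-list peaks. Leaving out each dense window in turn kept overlap between 71.7% and 72.5% at ZT10 and between 66.2% and 66.9% at ZT22. Ranking windows in 1 list was added after seeing the data, as were the groups by peak number and leaving out windows. No paired analysis was possible because there was a single pooled library for each time, so leaving a library out was not possible either.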

Other observations

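Strong peaks alone picked out partly different windows. Counting peaks with a printed score of 2 or more in either list, which takes the unstated score scale as the same in both, 45 windows held 35 or more, and 31 of them were dense windows. The fullest of those outside, chosen after their values were seen, was chromosome 2 from 27000001 to 28000000, with 49 such peaks among 70, and median scores of 2.7 at ZT10 and 2.3 at ZT22. Chromosome 13 from 21000001 to 22000000 followed with 48 among 71 and medians of 3.1 and 2.9, above those of any dense window. Next came chromosome 11 from 117000001 to 118000000, with 42 among 79 and lower medians of 2.1 and 1.8. Chromosome 14 from 24000001 to 25000000 held 41 among 76, with medians of 2.6 and 1.7. Chromosome 11 from 68000001 to 69000000, directly before the dense window at 69 Mb, held 41 among 59, with medians of 3.2 and 3.05. Its ZT10 median exceeded the 1.85 of that dense neighbour by more than 1 unit of score.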
